A study of Homo sapiens with 6 samples.

Results

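The 10 genes described here are the 3 RUNX transcription factor genes (RUNX1, RUNX2 and RUNX3), CBFB, which encodes their shared partner, 3 MEF2 transcription factor genes (MEF2A, MEF2C and MEF2D), and 3 genes of pyrophosphate handling (ENPP1, ANKH and ALPL). They were chosen by name, as regulators of chondrocyte hypertrophy and of mineral formation, with earlier results of these data known. All 10 were found among the 28395 genes of the count table. The cells were TC28a2, a chondrocyte line of human origin made to grow without limit, taken 48 hours after transfection with an FAP overexpression vector (3 libraries) or a control vector (3 libraries). FAP encodes the cell-surface protease fibroblast activation protein. DRUG-seq, used for all libraries, is RNA sequencing made cheap enough for many samples at once. The labels name neither the promoter of the vector nor the share of cells that took it up, nor do they tell if each replicate was its own culture. The p-values therefore rest on the spread among these 6 libraries, which may be technical.

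RUNX proteins bind DNA through the Runt domain and do so tightly only when paired with CBFB, which does not touch DNA itself. In growth plate cartilage RUNX2 and RUNX3 drive the step by which chondrocytes enlarge, become hypertrophic and prepare the matrix for mineral, and MEF2C acts on the same step, being held back by the histone deacetylase HDAC4. Mineral formation depends on the balance of phosphate and pyrophosphate outside the cell. ENPP1 makes pyrophosphate from nucleotides, ANKH lets it or its precursor leave the cell, and the tissue-nonspecific alkaline phosphatase encoded by ALPL breaks it down, so that the first pair restrain crystal growth and the last permits it.

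RUNX genes are each transcribed from a distal and a proximal start, which gene-level counts do not separate, and the sequences at these starts are shown because those of the distal RUNX2 and RUNX3 starts carry the binding motif of the family itself. RefSeq windows (GRCh38.p14, 250 bases before to 50 after a start) were found for 9 of the 10 genes, 21 windows in all. CBFB had none. The RUNX motif TGTGGT, or ACCACA on the other strand, occurred in 2 of these 21 windows, the distal ones of RUNX2 and RUNX3, against 13.1% of all 35116 windows in the table. The RUNX2 distal window (chr6:45328080-45328379, plus strand) held 4 matches, a number reached by 5 of the 35116 windows, and the RUNX3 distal window (chr1:24964961-24965260, minus strand) held 2. The proximal windows of RUNX2 (chr6:45422025-45422324, plus strand) and RUNX3 (chr1:24930227-24930526, minus strand) held none. The RUNX1 window (chr21:34888650-34888949, minus strand) also held none, but it lies inside the gene, whose distal end is at 35049302. No window covered the distal RUNX1 start, so that start was not searched. Capitals mark the matches, and the sequences read 5′ to 3′ along the gene.
RUNX2 distal: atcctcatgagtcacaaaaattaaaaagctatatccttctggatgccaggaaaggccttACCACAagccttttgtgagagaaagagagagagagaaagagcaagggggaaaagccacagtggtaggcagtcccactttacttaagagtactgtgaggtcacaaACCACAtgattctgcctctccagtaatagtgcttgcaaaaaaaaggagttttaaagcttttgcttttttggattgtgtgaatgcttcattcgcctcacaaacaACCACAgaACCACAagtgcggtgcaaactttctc
RUNX2 proximal: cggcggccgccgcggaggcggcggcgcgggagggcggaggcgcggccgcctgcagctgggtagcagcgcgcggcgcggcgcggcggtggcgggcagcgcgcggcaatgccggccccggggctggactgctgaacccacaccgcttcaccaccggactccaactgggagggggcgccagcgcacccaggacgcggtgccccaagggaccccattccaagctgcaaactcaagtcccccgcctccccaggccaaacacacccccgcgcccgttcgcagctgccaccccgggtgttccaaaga
RUNX3 distal: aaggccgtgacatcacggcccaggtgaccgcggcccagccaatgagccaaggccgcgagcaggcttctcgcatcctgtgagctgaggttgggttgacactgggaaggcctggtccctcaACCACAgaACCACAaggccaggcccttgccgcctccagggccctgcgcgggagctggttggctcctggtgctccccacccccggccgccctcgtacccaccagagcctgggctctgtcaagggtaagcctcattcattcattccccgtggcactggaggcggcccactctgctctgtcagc
RUNX3 proximal: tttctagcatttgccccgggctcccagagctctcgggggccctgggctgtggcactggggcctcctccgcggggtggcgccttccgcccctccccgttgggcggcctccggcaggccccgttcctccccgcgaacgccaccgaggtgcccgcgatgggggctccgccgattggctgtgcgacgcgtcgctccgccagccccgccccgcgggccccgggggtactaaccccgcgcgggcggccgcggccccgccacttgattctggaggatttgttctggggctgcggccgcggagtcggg

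Both distal windows contained the same run of 14 bases, ACCACAgaACCACA, in which the first bases of a pair of motifs lie 8 bases apart, at 17 and 25 bases after the RUNX2 start and at 131 and 123 bases before the RUNX3 start. This run, looked up after the windows had been read, was present in 3 of the 35116 windows (0.00854%). The start of the RUNX3 distal window lies inside the gene, whose 5′ end is at 24965138 and within the window. The RUNX3 distances hold for that start only. The MEF2 motif CTANNNNTAG occurred in 1 of the 21 windows, at 23 bases before 1 of 3 starts of MEF2A (chr15:99565734-99566033, plus strand), against 2.73% of all windows. The only MEF2D window (chr1:156490638-156490937, minus strand) lies inside the gene. The 5′ end of MEF2D, at 156500775, was not searched. Capitals mark the MEF2A match.
MEF2A: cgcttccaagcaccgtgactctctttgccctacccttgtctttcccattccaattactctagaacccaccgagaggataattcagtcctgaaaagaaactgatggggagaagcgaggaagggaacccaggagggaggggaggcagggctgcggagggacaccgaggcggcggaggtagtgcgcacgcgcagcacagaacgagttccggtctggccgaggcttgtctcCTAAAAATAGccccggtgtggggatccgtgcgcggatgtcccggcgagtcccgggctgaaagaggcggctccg
A match describes the letters of a window and does not show that a protein binds there.

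FAP was at 223, 225 and 351 CPM in the FAP libraries and at 0, 1.20 and 0.396 CPM in the controls, which fits the label of each of the 6 libraries. CPM are counts relative to library size, here after TMM scaling, a correction for library composition. Libraries held 6275038 to 13839743 gene counts in the FAP group and 5736056 to 12446373 in the control group. FAP replicate 3 stood apart from the other FAP libraries (chi-square per degree of freedom of 17.5 and 16.7, against 6.06 between FAP replicates 1 and 2 and 5.50 to 7.23 between controls). Chondrocyte markers were mostly low: of 15, SOX9 alone had enough counts to be tested, although none was at 0 in all 6 libraries. Their summed level was 35.2 to 45.7 CPM in FAP libraries and 27.2 to 36.4 CPM in controls. Most of that sum was SOX9, at 37.4 ± 5.66 CPM in FAP libraries and 28.8 ± 5.31 CPM in controls. Collagen II (COL2A1) averaged 0.0941 CPM in FAP libraries and 0.381 CPM in controls, with overlap. Aggrecan (ACAN) was at 0.319, 0.847 and 0.445 CPM in FAP libraries, against 1.10, 1.64 and 0.871 CPM in controls. Its groups did not overlap, on 2 to 15 counts per library. COL9A3 lay the other way, averaging 0.270 CPM in FAP libraries and 0.0992 CPM in controls, with overlap. Blood cell markers summed to 15.8 to 18.4 CPM in FAP libraries and 16.2 to 18.8 CPM in controls, most of it CD68, with PTPRC and SPI1 averaging 0.149 and 0.050 CPM over the 6 libraries. Muscle markers summed to 5.11 to 6.14 CPM and 3.40 to 7.12 CPM, with MYOD1 and MYF5 at 0. Osteoblast markers summed to 582 to 734 CPM and 434 to 680 CPM, nearly all COL1A1, with BGLAP, DMP1 and IFITM5 at 0. Endothelial markers summed to 1.84 to 2.55 CPM in FAP libraries and 0.871 to 1.09 CPM in controls, with CDH5 at 0. PECAM1 carried that difference, at 1.91, 1.41 and 1.78 CPM in FAP libraries, against 0.183, 0.437 and 0.712 CPM in controls, without overlap and not called (log2 fold change 1.74, SE 0.56, unadjusted p = 0.00562, adjusted p = 0.293 by edgeR). The epithelial list, mostly KRT8 and KRT18, summed to 1408 to 1541 CPM and 1313 to 1508 CPM. The part of these markers in the results was not tested.

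None of the RUNX, MEF2 and pyrophosphate genes changed between FAP and control libraries by the test across all genes. Of the 10, 8 had enough counts to be tested (edgeR's filter), and MEF2C and ALPL did not. None of the 8 passed at an adjusted p of 0.05 (edgeR's quasi-likelihood test, Benjamini-Hochberg over all 13373 tested genes), none had an unadjusted p under 0.05, and DESeq2 and limma-voom called 0 as well. Over all tested genes 0.224% were called, 0.0972% higher and 0.127% lower in FAP libraries, and 9.91% had an unadjusted p under 0.05. Of the 8 genes, 5 had log2 fold changes above 0, against 50.7% of all tested genes, and their median was 0.01, against 0.00 for all. The median size of change, whatever its sign, was 0.06 for the 8 genes and 0.15 for all tested genes. These medians were not matched for expression level. By mean CPM the 8 genes lay above 31.3% (ENPP1) to 85.8% (RUNX3) of tested genes. In all 8 the FAP and control libraries overlapped in CPM, whereas in 16% of tested genes they did not, 7.96% with all FAP libraries above and 7.99% with all below. The 95% intervals of the 8 log2 fold changes, each taken alone, lay between -0.40 and 0.57. In bulk RNA, fewer expressing cells and less RNA per cell cannot be told apart.

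**Figure D1:**
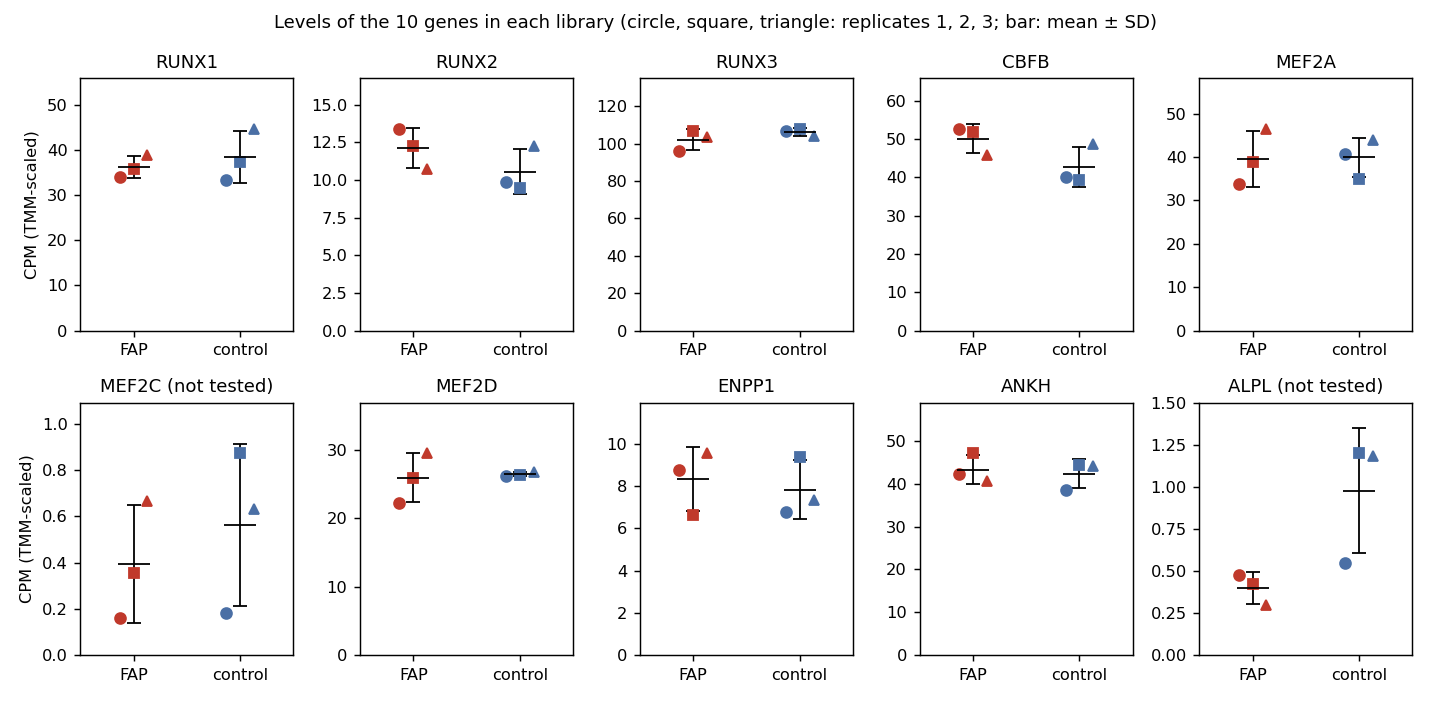
TMM-scaled CPM of the 10 genes, 1 panel each with its own axis from 0, in the 3 FAP libraries (red, left) and the 3 control libraries (blue, right); circles, squares and triangles are replicates 1, 2 and 3, and bars give mean ± SD. FAP and control points overlap in all panels but that of ALPL, whose FAP libraries at 0.296 to 0.479 CPM sit below controls at 0.548 to 1.20 CPM.

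**Figure D2:**
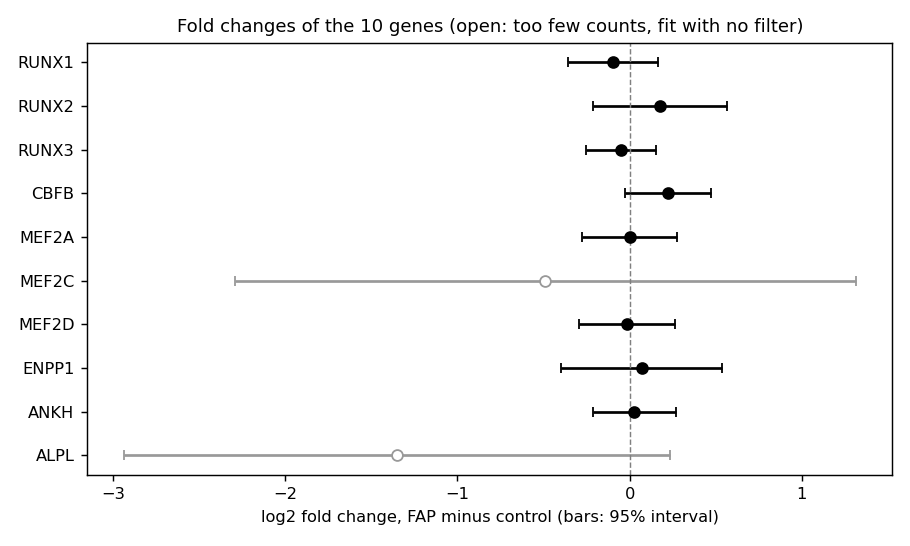
Log2 fold change of each gene, FAP minus control, with its 95% interval, filled for the 8 genes tested and open for MEF2C and ALPL, which are taken from the fit with no filter on low counts. All 10 intervals cross 0; those of the 8 tested genes stay between -0.40 and 0.57, and that of ALPL reaches from -2.94 to 0.23.

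RUNX3, which acts with RUNX2 in cartilage and is otherwise best known from T cells and sensory neurons, was the most abundant of the RUNX genes (Entrez 864; GRCh38.p14 chromosome 1, 24899511 to 24965138). Its level was 95.9, 107 and 104 CPM in FAP replicates 1, 2 and 3, against 106, 108 and 104 CPM in control replicates 1, 2 and 3. The 6 libraries were close to each other, with the lowest value in FAP replicate 1. Its log2 fold change of -0.05 (SE 0.10, adjusted p = 0.898) had a 95% interval of -0.25 to 0.15, the narrowest among the 8 genes.

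RUNX1, a regulator of blood stem cells that is also made in early cartilage (Entrez 861; chromosome 21, 34787801 to 35049302), was at 34.2, 35.7 and 38.9 CPM in FAP libraries, against 33.4, 37.5 and 44.7 CPM in controls. Control replicates 1 and 3 held the lowest and the highest value of all 6, and the fitted difference was -0.10 in log2 (SE 0.13, adjusted p = 0.843, 95% interval -0.36 to 0.17).

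RUNX2, the factor that osteoblasts cannot form without and a main driver of hypertrophy (Entrez 860; chromosome 6, 45328330 to 45551082), was at 13.4, 12.3 and 10.7 CPM in FAP libraries, against 9.86, 9.50 and 12.3 CPM in controls. FAP replicates 1 and 2 were the 2 highest, narrowly above control replicate 3, and FAP replicate 3 lay among the controls. In log2 the fitted difference was 0.18 (SE 0.19, adjusted p = 0.794, 95% interval -0.21 to 0.57). With control replicate 3 left out it was 0.32 (adjusted p = 0.630), and with control replicate 2 left out it was 0.11 (adjusted p = 0.952).

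CBFB, the partner subunit (Entrez 865; chromosome 16, 67029149 to 67101058), had the smallest unadjusted p of the 8 genes. Its level was 52.7, 51.9 and 45.7 CPM in FAP libraries, against 40.0, 39.3 and 48.7 CPM in controls. The pattern across libraries was that of RUNX2: FAP replicates 1 and 2 stood highest, control replicates 1 and 2 lowest, and the third replicates crossed. The mean was 50.1 ± 3.81 CPM in FAP libraries and 42.7 ± 5.21 CPM in controls (SD, n = 3 each), and the log2 fold change was 0.22 (SE 0.12, unadjusted p = 0.0787, adjusted p = 0.556 by edgeR, 95% interval -0.03 to 0.47). With control replicate 3 left out it was 0.34 (adjusted p = 0.435), and with FAP replicate 3 left out 0.28 (adjusted p = 0.295). The other 4 libraries, left out in turn, gave lower values, down to 0.17 without control replicate 2 (adjusted p = 0.886). Among 8531 genes averaging 10 CPM or more, those whose log2 profile over the 6 libraries lay nearest to that of CBFB were FSD1, WASHC4 and RUNX2, with root mean square differences of 0.03, 0.04 and 0.04 on the log2 scale. RUNX2 had only 54 to 174 counts per library, and whether its likeness to CBFB goes beyond counting error was not tested.

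Summed over RUNX1, RUNX2 and RUNX3 the level was 143, 155 and 153 CPM in FAP libraries and 150, 155 and 161 CPM in controls, overlapping ranges. Per kilobase of each gene's longest coding transcript, RUNX3 made up 76.8 ± 0.948% of the family total in FAP libraries and 77.4 ± 2.79% in controls (SD, n = 3 each). RUNX1 made up 16.3 ± 0.870% in FAP libraries and 16.7 ± 2.14% in controls. RUNX2 was the smallest part, at 6.98 ± 1.01% in FAP libraries and 5.85 ± 0.739% in controls. RUNX2 shares of 8.07%, 6.80% and 6.07% in FAP libraries overlapped the 5.61%, 5.27% and 6.68% of controls. The shares depend on the length used: with each gene's median coding transcript, RUNX3 made up 50.4 ± 1.27% in FAP libraries and 50.6 ± 3.98% in controls, and RUNX1 43.5 ± 1.61% in FAP libraries and 44.3 ± 3.67% in controls. RUNX2 was then 6.08 ± 0.922% in FAP libraries and 5.05 ± 0.454% in controls. Undivided by length, RUNX3, RUNX1 and RUNX2 averaged 104, 37.4 and 11.3 CPM over the 6 libraries.

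Of the MEF2 genes, which turn on muscle, neuronal and chondrocyte programmes in response to calcium and kinase signals, MEF2A and MEF2D were well above the detection limit and MEF2C was near it. MEF2A (Entrez 4205; chromosome 15, 99565417 to 99716488) was at 33.7, 38.7 and 46.5 CPM in FAP libraries, against 40.7, 35.0 and 43.9 CPM in controls. The FAP libraries held both the lowest and the highest value, with a log2 fold change of 0.00 (SE 0.13, adjusted p = 1.00, 95% interval -0.27 to 0.28). MEF2D (Entrez 4209; chromosome 1, 156463727 to 156500775) was at 22.3, 26.0 and 29.6 CPM in FAP libraries, against 26.3, 26.3 and 26.8 CPM in controls. The 3 controls nearly coincided and the FAP libraries lay on both sides of them, giving a log2 fold change of -0.02 (SE 0.13, adjusted p = 0.980, 95% interval -0.30 to 0.26).

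MEF2C (Entrez 4208, chromosome 5, 88717117 to 88904105) has a known part in hypertrophy. It had 1, 5 and 9 counts in FAP libraries, against 1, 8 and 8 counts in controls. These correspond to 0.160, 0.353 and 0.667 CPM and to 0.183, 0.874 and 0.633 CPM, so the groups overlapped. With no filter on low counts the log2 fold change was -0.49 with an SE of 0.92 (adjusted p = 0.899) and a 95% interval of -2.29 to 1.31, far wider than for the 8 tested genes. The pooled counts of 15 in FAP libraries and 17 in controls gave a ratio of rates of 0.709, with a 95% counting interval of 0.330 to 1.51 that covers counting error only. Per kilobase, MEF2A made up 60.7 ± 0.546% of the 3 MEF2 genes in FAP libraries and 60.1 ± 2.77% in controls, and MEF2D 38.9 ± 0.724% and 39.2 ± 2.46% (SD, n = 3 each). MEF2C was 0.440 ± 0.229% in FAP libraries and 0.667 ± 0.444% in controls. With median lengths MEF2A made up 62.5 ± 0.437% in FAP libraries and 61.8 ± 2.91% in controls. Undivided by length, MEF2A, MEF2D and MEF2C averaged 39.8, 26.2 and 0.478 CPM over the 6 libraries.

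The 2 pyrophosphate-supplying genes were expressed in both groups at like levels, and ALPL was near the detection limit. ANKH, the membrane transporter (Entrez 56172; chromosome 5, 14704800 to 14871778), was at 42.3, 47.2 and 40.6 CPM in FAP libraries, against 38.5, 44.4 and 44.3 CPM in controls. FAP replicate 2 was highest and control replicate 1 lowest, with the others between, with a log2 fold change of 0.03 (SE 0.12, adjusted p = 0.960, 95% interval -0.21 to 0.27). ENPP1, the pyrophosphate-forming ectoenzyme (Entrez 5167; chromosome 6, 131808020 to 131895155), was at 8.78, 6.63 and 9.56 CPM in FAP libraries, against 6.76, 9.40 and 7.36 CPM in controls. High and low libraries occurred in both groups, with a log2 fold change of 0.07 (SE 0.22, adjusted p = 0.946, 95% interval -0.40 to 0.54), the least precise of the 8 tested.

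ALPL (Entrez 249; chromosome 1, 21508984 to 21578410) had 3, 6 and 4 counts in FAP libraries, against 3, 11 and 15 counts in controls. In CPM these were 0.479, 0.423 and 0.296 in FAP libraries and 0.548, 1.20 and 1.19 in controls. All 3 FAP libraries lay below all 3 controls, but both replicate 1 libraries held 3 counts and differed only through their size. The exact 95% Poisson interval was 0.0987 to 1.40 CPM in FAP replicate 1 and 0.113 to 1.60 CPM in control replicate 1, against 0.600 to 2.15 CPM in control replicate 2. Pooled, 13 counts in FAP libraries and 29 in controls gave a ratio of rates of 0.360 (95% counting interval 0.172 to 0.715). That interval holds for these libraries' counts and leaves out the spread between replicates. With no filter on low counts edgeR gave a log2 fold change of -1.35 (SE 0.81, unadjusted p = 0.0949, adjusted p = 0.708, 95% interval -2.94 to 0.23), so the lower counts were not a called change. The placental alkaline phosphatase gene ALPP was at 0.957, 0.847 and 2.67 CPM in FAP libraries and at 2.19, 1.31 and 0.633 CPM in controls, and the groups overlapped.

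Levels of different genes were compared per kilobase of the longest coding transcript, since longer transcripts can give more reads. Where priming is at the poly(A) tail, as in DRUG-seq's general design, reads need not grow with transcript length. Such a correction can then be out of place, and the order below holds for these lengths. In CPM without it, ANKH at 42.9 lay above MEF2A at 39.8 and near CBFB at 46.4. RUNX3 averaged 24.0 CPM per kb over the 6 libraries, with a range of 22.1 to 24.8, and was above CBFB in all 6. CBFB followed at 14.8 (12.5 to 16.8) and MEF2A at 6.83 (5.78 to 7.98). ANKH at 5.22 and RUNX1 at 5.14 did not differ beyond their spread, ANKH being the higher in 4 of 6 libraries. MEF2D at 4.40 overlapped the range of RUNX1, although lower in all 6 libraries. RUNX2 at 1.99, ENPP1 at 1.09, ALPL at 0.266 and MEF2C at 0.0632 came last, and of these the ranges of ALPL and MEF2C touched. Divided by the median instead of the longest transcript length, CBFB came first at 64.9 and RUNX1 moved to the third place at 23.5, while the orders RUNX3, RUNX1, RUNX2 and MEF2A, MEF2D, MEF2C stayed.

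**Figure D3:**
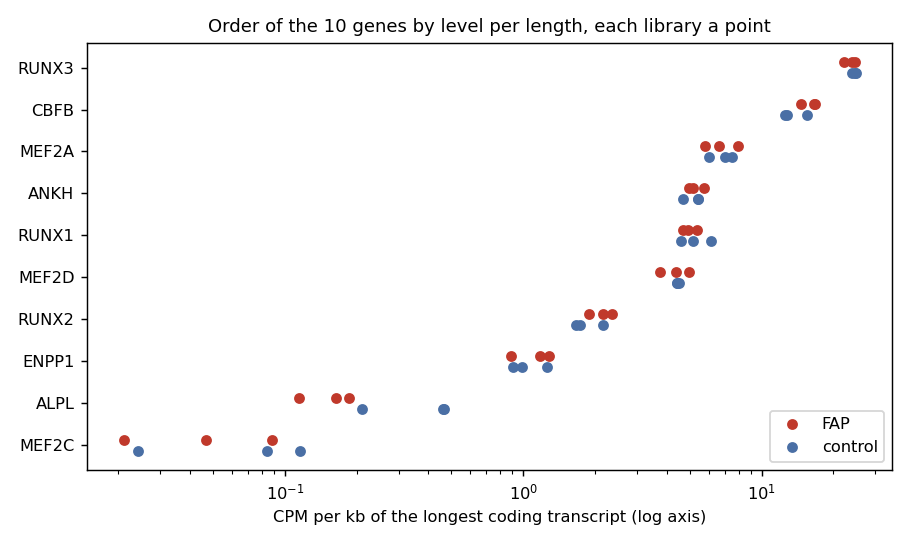
CPM per kilobase of the longest coding transcript (log axis) for the 10 genes, ordered by their mean, with 1 point per library: FAP libraries in red above control libraries in blue. RUNX3 at 22.1 to 24.8 CPM per kb is highest, ANKH and RUNX1 share a range, and ALPL and MEF2C lie below 0.5 CPM per kb in all 6 libraries.

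Ratios of counts within a library do not depend on scaling, and 6 were compared between groups with a two-sided exact permutation test (smallest possible p 0.1; p adjusted over the 6). The log2 ratio of CBFB to the summed RUNX counts was -1.44, -1.58 and -1.74 in FAP libraries, against -1.90, -1.98 and -1.72 in controls. FAP replicates 1 and 2 stood above all controls and FAP replicate 3 did not, and the difference of 0.28 was not called (exact permutation p = 0.2, adjusted p = 0.4). The log2 ratio of RUNX2 to RUNX1 was -1.34, -1.54 and -1.85 in FAP libraries, against -1.75, -1.97 and -1.86 in controls, a difference of 0.28 (exact permutation p = 0.2, adjusted p = 0.4). Leaving out 1 library gave 0.17 (without FAP replicate 1, exact permutation p = 0.4) to 0.42 (without FAP replicate 3, exact permutation p = 0.1, the smallest possible), and 0.21 to 0.36 for CBFB over the summed RUNX counts.

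The log2 ratio of ALPL to ENPP1, the enzyme that removes pyrophosphate over the one that forms it, was -3.99, -3.86 and -4.85 in FAP libraries, against -3.42, -2.91 and -2.59 in controls. The groups did not overlap, which gives the smallest possible p (exact permutation p = 0.1, adjusted p = 0.4), and the difference was -1.26. It rests on the 3 to 15 ALPL counts per library given above and, with 1 library left out, ranged from -1.48 without control replicate 1 (exact permutation p = 0.1) to -0.95 without FAP replicate 3 (exact permutation p = 0.2). The ratios of RUNX3 to RUNX1, MEF2A to MEF2D and ANKH to ENPP1 differed by 0.02, 0.02 and -0.05 between groups (exact permutation p = 0.9, 0.9 and 1.0), each with overlapping libraries.

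**Figure D4:**
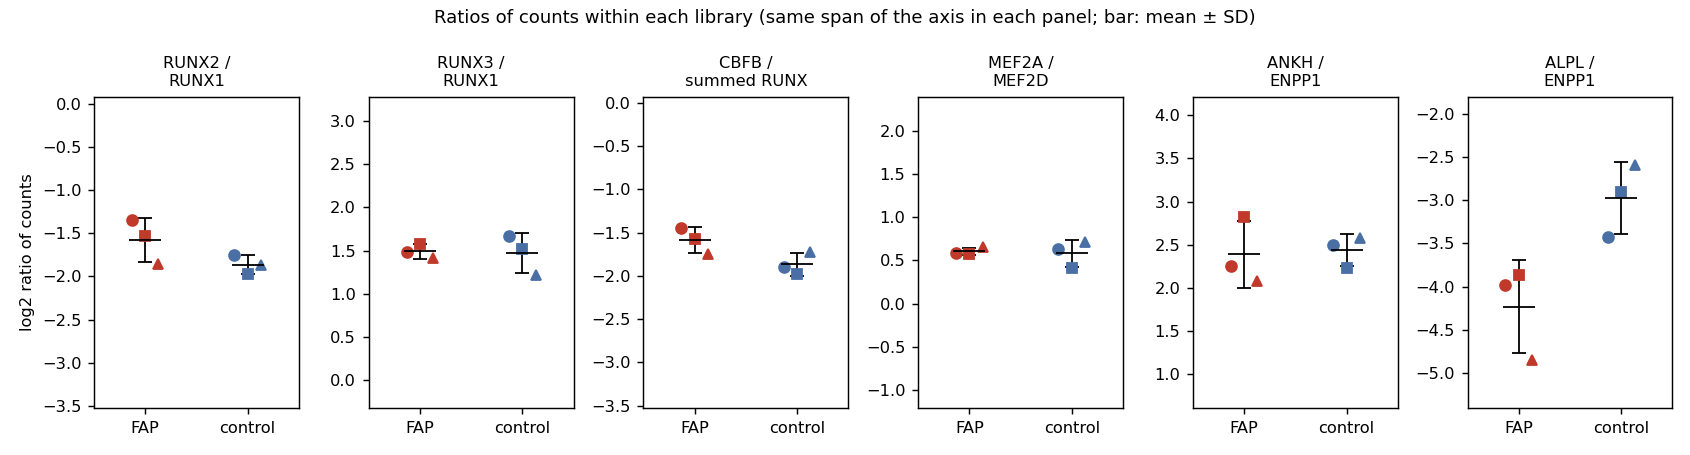
Log2 ratios of counts within each library for 6 pairs of genes, FAP libraries (red) left of control libraries (blue); circles, squares and triangles are replicates 1, 2 and 3, bars give mean ± SD, and all panels span the same width in log2 units. ALPL to ENPP1 is the only pair without overlap, at -4.85 to -3.86 in FAP libraries and -3.42 to -2.59 in controls.

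Genes around these pathways were taken from 7 lists, which share a few genes. The lists were chosen with earlier results of these data known, so shares set beside those of all tested genes only describe them. None of their tested members was called (edgeR), none by DESeq2 or limma-voom, against 0.224% of all tested genes. In 16% of all tested genes the FAP and control libraries did not overlap. Of 37 partners and regulators of RUNX proteins, 32 were tested, with a median log2 fold change of 0.07 and 3 members at an unadjusted p under 0.05, against 9.91% of all tested genes. These were the homeobox gene MSX1, at 84.2 ± 14.0 CPM in FAP libraries and 102 ± 5.91 CPM in controls (log2 fold change -0.29, adjusted p = 0.405), SOX9, the chondrocyte factor that opposes RUNX2, at 37.4 ± 5.66 CPM and 28.8 ± 5.31 CPM (0.36, adjusted p = 0.416), and SNAI2, a mesenchymal repressor, at 62.4 ± 3.38 CPM and 48.8 ± 12.0 CPM (0.33, adjusted p = 0.428). Each value is mean ± SD over 3 libraries, and in each of these genes the groups overlapped. The osteoblast factor SP7 and the homeobox genes DLX3 and DLX5 had too few counts to be tested.

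Of 28 regulators and corepressors of MEF2 proteins 27 were tested, with a median of 0.03. Unadjusted p was under 0.05 in 2 members, against 9.91% of all tested genes. The class IIa histone deacetylases that hold MEF2 in check had log2 fold changes of -0.04 (HDAC4), -0.01 (HDAC5), 0.03 (HDAC7) and -0.09 (HDAC9). HDAC7 was the most abundant of these in CPM, at 53.5 ± 7.12 in FAP libraries and 52.9 ± 3.79 in controls, and HDAC4 was at 7.13 ± 2.08 and 7.21 ± 1.05. The MEF2 and calcineurin inhibitor CABIN1 was at 36.1, 37.9 and 36.7 CPM in FAP libraries, against 33.1, 26.9 and 30.2 CPM in controls (0.31, adjusted p = 0.405). Protein kinase D3 (PRKD3) was at 34.2 ± 2.22 CPM in FAP libraries and 27.2 ± 3.02 CPM in controls (0.31, adjusted p = 0.416), and the salt-inducible kinase SIK2 at 13.3 ± 1.51 CPM and 17.1 ± 3.08 CPM (-0.36, adjusted p = 0.507). In CABIN1 and PRKD3 all FAP libraries lay above all controls.

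Of 19 genes of hypertrophic chondrocytes 8 were tested, with a median of -0.01. Unadjusted p was under 0.05 in 0 of them, against 9.91% of all tested genes. Collagen X (COL10A1), the defining matrix protein of the hypertrophic state, averaged 0.165 CPM in FAP libraries and 0.150 CPM in controls, and IHH, SPP1, IBSP and SP7 averaged 0.165 to 0.208 CPM over the 6 libraries. The 3 with the smallest p were FOXA2, a factor of late hypertrophy (log2 fold change -0.31, adjusted p = 0.670), the gelatinase gene MMP9 (-0.23, adjusted p = 0.691) and the collagenase gene MMP13 (-0.58, adjusted p = 0.779). Of 15 genes of the hedgehog and PTHrP loop, which sets the pace of hypertrophy in the growth plate, 10 were tested. Log2 fold changes were above 0 in 8 of them, against 50.7% of all tested genes. Their median was 0.17, against 0.00 for all tested genes. The GLI inhibitor SUFU was at 16.1, 13.1 and 17.2 CPM in FAP libraries, against 9.50, 12.2 and 11.9 CPM in controls (0.44, SE 0.18, adjusted p = 0.405), all FAP libraries being above all controls. GNAS and GLI2 had 0.22 (adjusted p = 0.534) and -0.32 (adjusted p = 0.656).

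Of 28 genes of BMP signalling, which induces RUNX2 in skeletal cells, 20 were tested, with a median of 0.02 and 5 members at an unadjusted p under 0.05, where 9.91% of all tested genes had one. The secreted antagonist follistatin (FST) was at 20.9, 23.1 and 24.6 CPM in FAP libraries, against 30.1, 31.0 and 34.3 CPM in controls. All FAP libraries were below all controls, with a log2 fold change of -0.47 (SE 0.13, adjusted p = 0.180). Gremlin 1 (GREM1), another secreted BMP antagonist, was at 92.2, 103 and 87.2 CPM in FAP libraries, against 132, 103 and 136 CPM in controls, again without overlap but with FAP replicate 2 next to control replicate 2 (-0.40, SE 0.11, adjusted p = 0.216). The receptor gene BMPR2 was at 23.3 ± 2.29 CPM in FAP libraries and 18.8 ± 0.718 CPM in controls (0.31, adjusted p = 0.465). The other 2 were BMP target genes: ID3 was at 129, 124 and 129 CPM in FAP libraries, against 156, 137 and 147 CPM in controls, all FAP libraries being below all controls (-0.20, adjusted p = 0.488). ID1 was at 49.0, 57.0 and 53.3 CPM in FAP libraries, against 68.9, 54.5 and 66.3 CPM in controls, with overlap (-0.24, adjusted p = 0.491). Without FAP replicate 3, a fit chosen after the data were seen, FST was called (log2 fold change -0.53, adjusted p = 0.0400), 1 of the 128 list genes tested in that fit, in which 1.86% of all tested genes were called. The other 5 fits that left out a library called no list gene. The ligand genes BMP2 and BMP6 had too few counts to be tested.

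Of 29 other genes that handle pyrophosphate, nucleotides and phosphate 18 were tested, with a median of -0.0046. Unadjusted p was under 0.05 in 3 members, against 9.91% of all tested genes. NT5E, the ectonucleotidase CD73 that acts after ENPP1 and makes adenosine, was at 119, 113 and 114 CPM in FAP libraries, against 136, 126 and 156 CPM in controls. All FAP libraries were below all controls (log2 fold change -0.28, SE 0.10, adjusted p = 0.358). The inorganic pyrophosphatases inside the cell lay the other way, all FAP libraries being above all controls: PPA1, cytosolic, at 196 ± 28.9 CPM in FAP libraries and 166 ± 7.88 CPM in controls (0.23, adjusted p = 0.479), and PPA2, mitochondrial, at 36.3 ± 3.20 CPM and 30.0 ± 1.13 CPM (0.27, adjusted p = 0.470). The phosphate importer SLC20A1 had -0.14 (adjusted p = 0.683) and the exporter XPR1 0.13 (adjusted p = 0.830). PHOSPHO1, the phosphatase of matrix vesicles, averaged 0.125 CPM in FAP libraries and 0.462 CPM in controls and was not tested.

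Of 21 genes of mineralizing matrix, its inhibitors and matrix vesicles 13 were tested, with a median of -0.02. Against 9.91% of all tested genes, 1 member was at an unadjusted p under 0.05. That was FAM20C, the kinase of secreted mineral-binding proteins, at 127, 123 and 123 CPM in FAP libraries, against 91.5, 121 and 88.4 CPM in controls (log2 fold change 0.31, SE 0.11, adjusted p = 0.367). All FAP libraries lay above all controls, FAP replicates 2 and 3 only just above control replicate 2. Annexin A5 (ANXA5) and fibrillin 1 (FBN1) had 0.18 (adjusted p = 0.575) and 0.21 (adjusted p = 0.710). Matrix Gla protein (MGP), an inhibitor of mineral growth, was at 0.934 ± 0.426 CPM in FAP libraries and 0.967 ± 0.229 CPM in controls.

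**Figure D5:**
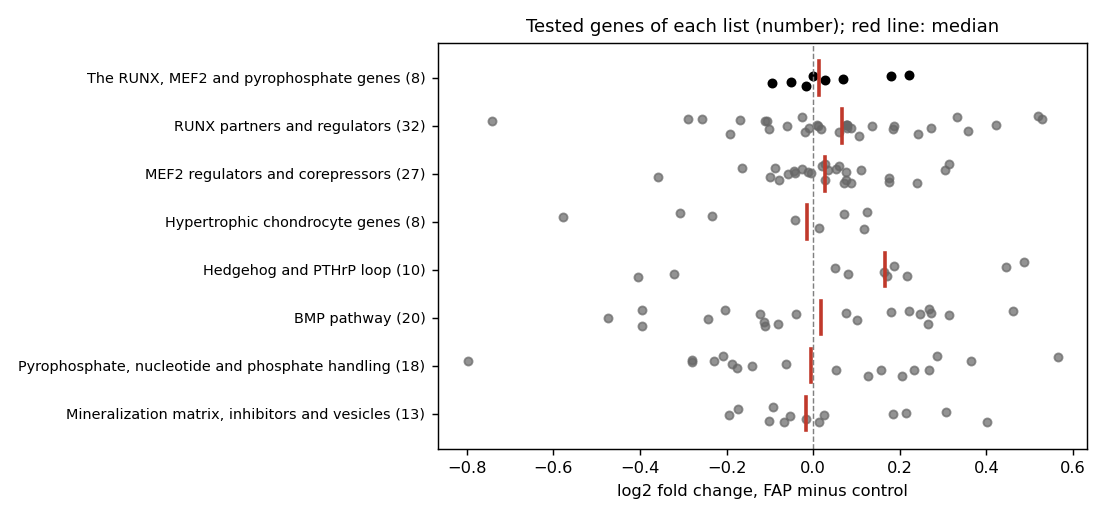
Log2 fold changes, FAP minus control, of the tested genes in the 7 pathway lists (grey) and of the 8 tested RUNX, MEF2 and pyrophosphate genes (black, top row); red lines are medians, and the number tested is given beside each name. The 8 genes lie between -0.10 and 0.22, list medians lie between -0.02 and 0.17, and no gene shown was called.

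Several of these genes overlap others, and whether counting used strand is not stated in the sources used here. The distal start of RUNX2 lies inside SUPT3H (chromosome 6, 44809057 to 45377934) and the proximal start outside it. SUPT3H was at 5.59, 7.98 and 8.67 CPM in FAP libraries, against 4.38, 6.01 and 4.27 CPM in controls (log2 fold change 0.62, SE 0.25, adjusted p = 0.416), and whether reads passed between it and RUNX2 was not tested. OTULIN, which overlaps the end of ANKH, was at 49.8, 47.4 and 80.6 CPM in FAP libraries and 62.3, 54.4 and 56.0 CPM in controls, so FAP replicate 3 was high there and not in ANKH. LYSMD4, at the end of MEF2A, averaged 3.00 CPM in FAP libraries and 3.66 CPM in controls. RUNX1-IT1, within RUNX1, was at 1.28, 0.212 and 1.04 CPM in FAP libraries, against 1.83, 1.53 and 1.42 CPM in controls, without overlap but on 3 to 18 counts per library (log2 fold change -1.01, SE 0.58, adjusted p = 0.583).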

How the data were processed

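RNA of TC28a2 cells was measured in 3 FAP and 3 control libraries by DRUG-seq. The authors deposited 1 table of raw whole-number counts by Entrez gene and library, with no normalization. HISAT2, featureCounts, Subread and GRCh38 are named in the submitters' processing notes. Their versions, the strand setting and any collapsing by molecular identifier: not given in the sources used here. Reads copied in amplification would count separately. Symbols were found for 27745 of 28395 IDs in RefSeq's table (GRCh38.p14), and transcript lengths came from GENCODE.

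All genes were fitted with edgeR 4.0.16 in R 4.3.3 (TMM, filterByExpr with minimum count 10 and minimum total 15, quasi-likelihood F test, FAP minus control, no covariate), and p-values were Benjamini-Hochberg adjusted over 13373 genes. Standard errors were derived from the log2 fold change and its F statistic, and the common dispersion corresponded to a coefficient of variation of 11.8%. Ratios added 0.5 to each count. Samples were grouped by their labels, and the fit was tested on simulated data. Alternatives were DESeq2 1.42.0, limma-voom (limma 3.58.1), other size factors and filters, a replicate block and each library left out. No label says that the replicate numbers pair the libraries, and the main fit did not pair them. The genes and lists were chosen with earlier results of these data known. The naming rule took all 10 genes, called list genes and, in a list with none, the 3 with the smallest p; HDAC genes, COL10A1, ALPP, SLC20A1, XPR1, PHOSPHO1, MGP, ID1, ID3, PECAM1 and untested or overlapping genes were picked for naming with their values in view.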

Additional observations from a re-analysis of the deposited data

How the results depend on the processing

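No RUNX, MEF2 or pyrophosphate gene was called under any of the 13 alternatives. Among those tested in the main fit, the smallest adjusted p was 0.295. Without FAP replicate 1, 2 or 3, or without control replicate 1, 9 of these genes were tested. In those fits MEF2C or ALPL thus also passed the filter and was not called, but its fold change and p were not recorded. ENPP1 had too few counts for the filter at 10 CPM. For CBFB the unadjusted p ranged from 0.0220 without control replicate 3 to 0.242 without control replicate 2, and was under 0.05 also without FAP replicate 3 (0.0265) and with library totals (0.0439), but not in the other alternatives. Of 55 log2 fold changes under other methods, scalings and filters, 51 kept their sign: MEF2A was -0.0016 with DESeq2 and -0.00023 with the replicate block, and with library totals in place of TMM RUNX3 was 0.0041 and MEF2D 0.037. Leaving out a library gave -0.13 to 0.10 for MEF2A, -0.12 to 0.069 for MEF2D, -0.041 to 0.078 for ANKH, -0.064 to 0.22 for ENPP1 and -0.18 to 0.032 for RUNX1, while RUNX2, RUNX3 and CBFB kept their sign. The differences in log2 ratio ranged from -0.10 to 0.12 for RUNX3 to RUNX1, from -0.064 to 0.087 for MEF2A to MEF2D and from -0.27 to 0.10 for ANKH to ENPP1. Over all genes 30 were called, against 82 with DESeq2, 19 with library totals, 152 with no low-count filter, and 3 to 248 without 1 library (4, 7 and 3 without control replicates 1, 2 and 3, and 38, 6 and 248 without FAP replicates 1, 2 and 3). The cause was not tested. With the replicate number as a block 44 genes were called and none of the 10, deviations of same-numbered libraries correlating at -0.004, 0.020 and -0.004 across genes, with no sign that every library went best with its own number. Depth limits ALPL and MEF2C, where 3 counts are 0.212 to 0.548 CPM.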

Other observations

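FAP replicate 3 had the highest FAP level of its group, at 351 CPM against 223 and 225 CPM. Within the FAP group it also held the highest RUNX1, MEF2A, MEF2C, MEF2D and ENPP1 (38.9, 46.5, 0.667, 29.6 and 9.56 CPM). It held the lowest RUNX2, CBFB, ANKH and ALPL (10.7, 45.7, 40.6 and 0.296 CPM), and only RUNX3 lay between the other FAP libraries. A single library cannot show whether these go together, and its part in the results is given above by leaving it out.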
